A study of Oryza sativa with 12 samples.

Results

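The cultivar by drought interaction was the drought response of Bala minus the drought response of Azucena in leaves of field-grown rice, each response being Droughted minus Control on the log2(signal + 16) scale. All 12 arrays of the series entered it, 3 in each of 4 groups, namely Droughted Bala, Control Bala, Droughted Azucena and Control Azucena. It was computed for every probe set that was no control and was bright enough to be tested, and 2333 of the 15608 genes tested (14.9%) had an interaction with an adjusted p under 0.05 in limma, a linear model with moderated variances, after Benjamini-Hochberg adjustment. These are the genes described here, and they are called below genes with a called interaction. Bala is an upland rice of the indica type and Azucena an upland rice of the tropical japonica type. Plants of the Droughted groups received no water from day 59 after sowing until their leaves were cut on day 83, 24 days later, while Control plants stood in flooded plots throughout. The middle of the leaf next to the youngest full-sized one was kept, with 4 cm trimmed at either end, and all leaves of a field block went into 1 bag, which gave 1 array. A drought bag held leaves of 2 plots per block and a control bag those of 1 plot, so that drought and the number of plots cannot be told apart, in either cultivar.

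A leaf short of water closes its stomata, accumulates the hormone abscisic acid (ABA) and switches on genes for dehydrins, chaperones and enzymes that make water-holding solutes, while genes of growth, wall deposition and light capture are often turned down. Where 2 genotypes share a field, the part of this response that depends on the genotype is the genotype by environment interaction: a gene may respond in 1 genotype, respond more in 1 of them, or move in opposite directions. A positive interaction here means a larger rise or a smaller fall in Bala than in Azucena, and a negative one the reverse. Both signs can arise from genes that moved in Bala or from genes that moved in Azucena, so the leading genes are given below with their signals in all 4 groups.

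The arrays carried 57381 probe sets, medians per array ran between 9.6 and 12.4 on the linear signal scale, and 33476 probe sets that exceeded their own array's median on at least 3 arrays were tested. Background was taken per array as the brightest among 33 negative controls and averaged 21.9 in Droughted Bala, 15.3 in Control Bala, 21.6 in Droughted Azucena and 24 in Control Azucena. Replicate arrays correlated at 0.954 to 0.969 (Spearman, across probe sets). The 3′ to 5′ signal ratio of the glyceraldehyde-3-phosphate dehydrogenase control probe sets, a sign of RNA integrity, was lower on the Bala arrays than on the Azucena arrays, with the values given beside GAPC3 below. That of actin overlapped between the cultivars, at 5.68 to 8.01 on the Bala arrays and 6.56 to 7.51 on the Azucena arrays. The part of RNA integrity in the interactions was not tested. Leaf mesophyll markers were bright in every group, with a summed signal of 35869 to 38242 in Droughted Bala, 46988 to 54037 in Control Bala, 34827 to 37785 in Droughted Azucena and 44034 to 52843 in Control Azucena, and 9 of the 10 were above background on some array (RBCS1 on none). In a whole leaf piece, fewer cells of a type and less RNA per cell cannot be told apart.

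Of the 2333 genes with a called interaction, 1532 were higher in Bala (9.82% of the genes tested) and 801 lower (5.13%). The counts of called members in each list below are to be read beside these shares and the 14.9% called of all genes. The median interaction was 0.15 over all genes tested, and its median size over the called genes was 1.16. A called interaction reached a log2 size of at least 1 in 1536 genes and of at least 2 in 302. The split between the directions depended on how the arrays were scaled: 65.7% of the calls were higher in Bala with the values as deposited, 61.1% (1615 higher, 1027 lower) with arrays centred on their spike-in controls, 51.5% (1533 higher, 1442 lower) after quantile normalization and 49.5% (1360 higher, 1390 lower) after median centring. The median interaction of all genes moved with it, to 0.11, 0.03 and 0.01 in the same order, so each list's median below is stated as its distance from the all-gene median. No called gene was called in the opposite direction under any of these scalings, which also called 93.2%, 89.8% and 86.8% of the genes higher in Bala and 98.9%, 99.8% and 100% of those lower in Bala. Without the array Droughted Bala 2, 1005 genes were higher in Bala. At least 1 of the 4 groups lay at background in 611 of the called genes, and there the size of the interaction rests partly on the added 16 and bounds nothing; all 4 groups were above background in 1722.

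**Figure D1:**
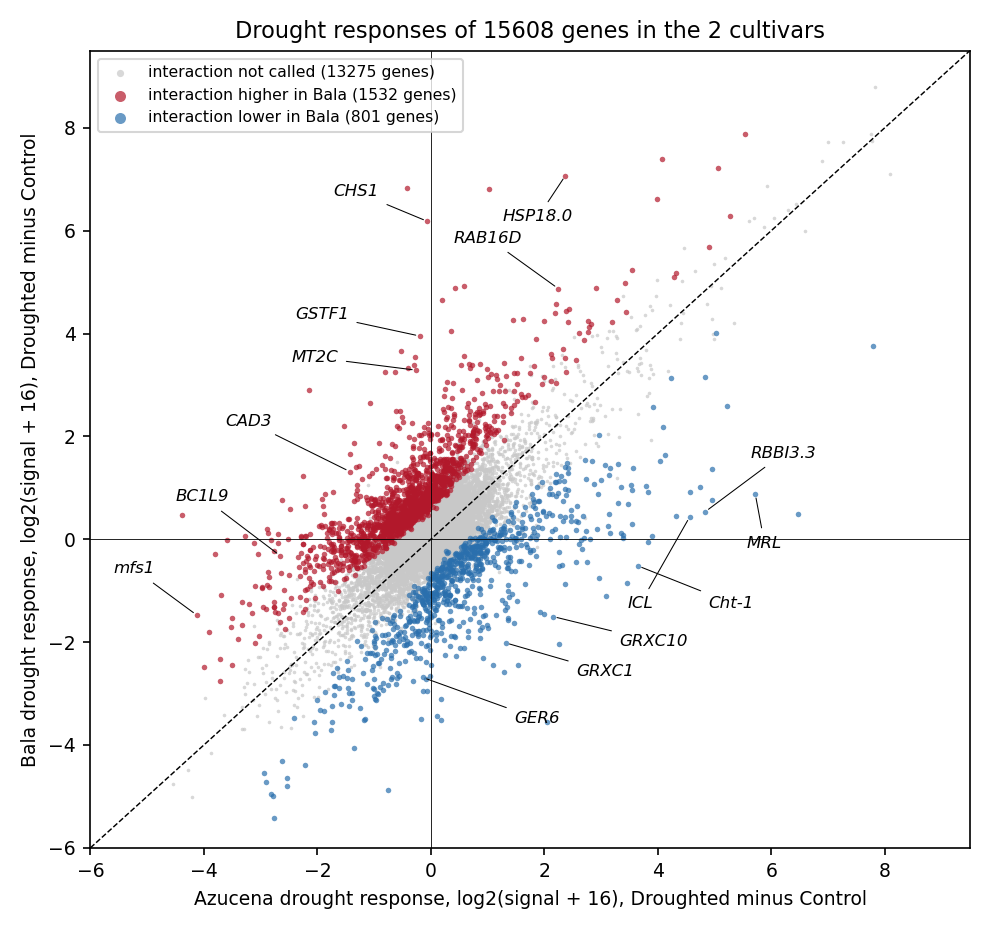
Drought response of 15608 genes in Bala (vertical axis) against that in Azucena (horizontal axis), both Droughted minus Control in log2(signal + 16), 1 point per gene. Red points mark the 1532 genes with a called interaction higher in Bala and blue points the 801 lower in Bala, and genes on the dashed line responded equally; CHS1 stands high on the left and MRL far to the right.

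The called interactions divided by what each cultivar did on its own. In all, 4270 genes rose (27.4%) and 2195 fell (14.1%) in Bala, and 2838 rose (18.2%) and 2722 fell (17.4%) in Azucena. With median centring 3231 rose and 3471 fell in Bala, and 3025 rose and 3341 fell in Azucena. The classes that follow were counted with the values as deposited only, and their order under other scalings was not tested. The commonest class among the called interactions held 642 genes that rose in Bala and were not called in Azucena, followed by 469 that fell in Azucena and were not called in Bala. Another 287 fell in Bala and 265 rose in Azucena without a call in the other cultivar. Genes called in the same direction in both cultivars made up 235 (rose in both) and 187 (fell in both), and of these 173 and 80 had the higher response in Bala. The cultivars' responses were opposed in the remaining genes, apart from 48 called in neither: 133 rose in Bala and fell in Azucena and 67 fell in Bala and rose in Azucena. A response called in 1 cultivar alone was not by itself a difference: of 2332 genes that rose in Bala without a call in Azucena, 642 had a called interaction. Nor does an interaction without a call show equal responses.

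**Figure D2:**
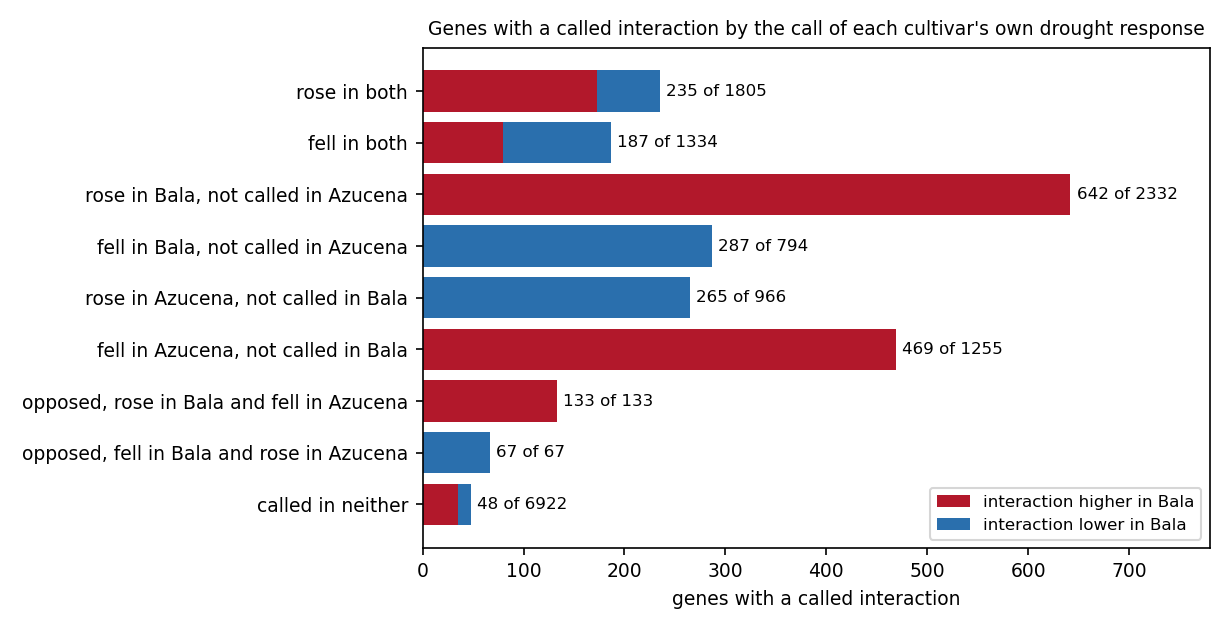
Number of genes with a called interaction (horizontal axis) by the call of the drought response in each cultivar (rows), with the number of genes tested in the class. Red bars are interactions higher in Bala and blue bars lower; the longest bar, 642 genes, holds genes that rose in Bala and were not called in Azucena.

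CHS1, of flavonoid synthesis, had the largest interaction of the genes with a name. Flavonoid and phenylpropanoid synthesis is the pathway that turns phenylalanine into pigments, sunscreens and lignin. All 3 flavonoid genes tested were higher in Bala. This short list was chosen with earlier results of these data known, so the count by itself says nothing of the pathway. CHS1, chalcone synthase, which makes the first flavonoid skeleton, had signals of 3584, 3649.7 and 3320.3 in Droughted Bala, 46.5, 31.3 and 22.8 in Control Bala, 2632, 2672 and 2281 in Droughted Azucena and 2507, 3466 and 2100.3 in Control Azucena. Control Bala was the only dim group, Droughted Bala was bright, and the Azucena groups were bright and overlapped. Its interaction was 6.25 ± 0.26 (SE, adjusted p = 8.2e-10, 95% interval 5.69 to 6.80), from a 72.7-fold rise in Bala and a log2 response of -0.06 in Azucena (adjusted p = 0.85). The 4 further probe sets of CHS1, all dimmer, gave interactions of 4.68, 1.89, 1.49 and 0.69, the last of them not called (adjusted p = 0.17). GSTF1, a glutathione transferase listed with flavonoid export, had signals of 1346, 1316 and 749.9 in Droughted Bala, 46.8, 80.4 and 45.9 in Control Bala, 163, 131 and 90.8 in Droughted Azucena and 188, 126 and 129 in Control Azucena. Here Droughted Bala stood above all other groups, and the Azucena groups overlapped. The interaction of GSTF1 was 4.15 ± 0.36 (adjusted p = 2e-06), with a 15.5-fold rise in Bala. CHI, chalcone isomerase, which closes the flavonoid ring system, differed far less, with an interaction of 0.75 ± 0.2 (adjusted p = 0.019). Its log2 response was -0.01 in Bala, and it fell 1.69-fold in Azucena. The call was lost without Droughted Bala 2, Droughted Azucena 1 or Control Azucena 2 (highest adjusted p 0.062).

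Lignin and phenylpropanoid genes moved both ways, 3 higher and 4 lower in Bala of 19 tested. 4CL.2, a 4-coumarate-CoA ligase, which activates the precursors of flavonoids and lignin, had signals of 107, 203 and 186 in Droughted Bala, 0.3, 1.5 and 3 in Control Bala, 68.6, 87.7 and 94 in Droughted Azucena and 136, 144 and 74.1 in Control Azucena. Only Control Bala was dark, and the gene rose at least 10.5-fold in Bala (adjusted p = 1.9e-08). CAD3, CAD6 and CAD8C encode cinnamyl alcohol dehydrogenases, which make the alcohols that polymerise to lignin, and their interactions ran in different directions. CAD3 had signals of 1252, 1228 and 1201 in Droughted Bala, 442, 867 and 291 in Control Bala, 697, 832 and 763 in Droughted Azucena and 2697, 1945 and 1706 in Control Azucena. It rose 2.49-fold in Bala and fell 2.69-fold in Azucena, for an interaction of 2.74 ± 0.37 (adjusted p = 0.00017). CAD6 fell 6.22-fold in Azucena and was not called in Bala (interaction 1.97). CAD8C averaged 44.9 ± 5.7 in Droughted Bala, 472 ± 100 in Control Bala, 864 ± 64 in Droughted Azucena and 1699.6 ± 390 in Control Azucena (SD, n = 3 each). It fell 7.92-fold in Bala against 1.92-fold in Azucena (interaction -2.04). The hydroxycinnamoyl transferase genes HCT1 (-1.52) and HCT2 (-1.26) fell in Bala without a call in Azucena. LAC7, a laccase, had an interaction of -2.64 with Control Bala signals of 216, 34.3 and 237 and the other groups at background. It was not called without Control Bala 1 or Control Bala 3. The 4 lower genes of the list numbered 2 without Droughted Bala 2, Droughted Azucena 2, Droughted Azucena 3 or Control Azucena 1. CAD3 is measured by a probe set that can match near-identical transcripts.

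**Figure D3:**
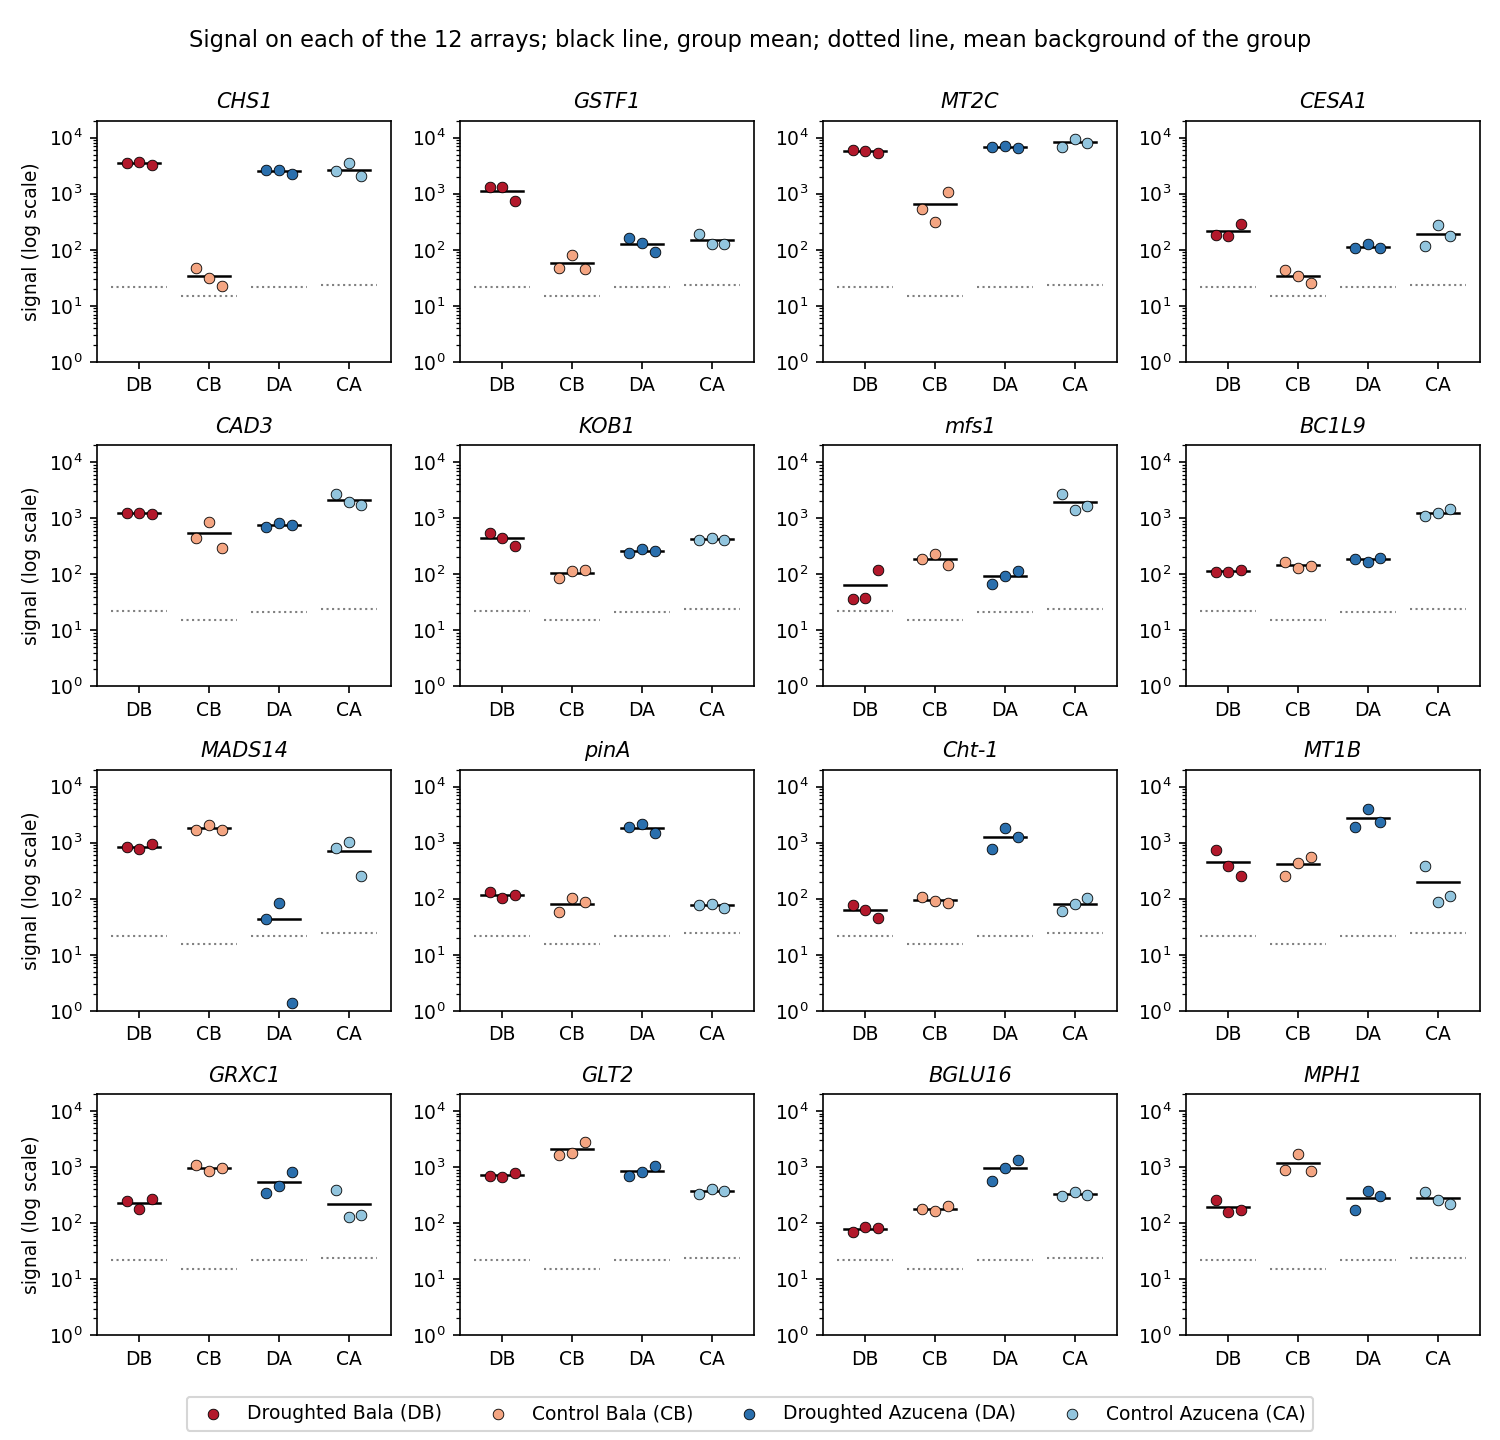
Signal on each of the 12 arrays (vertical axis, log scale) for 16 genes, in the order Droughted Bala (DB), Control Bala (CB), Droughted Azucena (DA) and Control Azucena (CA). Black lines are group means and dotted lines the mean background of the group; CHS1 is low in Control Bala alone, pinA and Cht-1 are high in Droughted Azucena alone, and GLT2 runs in opposite directions in the cultivars.

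Genes of cellulose synthesis and its relatives had the higher response in Bala in 13 of 26 members tested and the lower in 1, with a median interaction 0.77 above that of all genes. Of the 13, 10 rose in Bala without a call in Azucena, and 7 had a group at background. CESA1, a catalytic subunit of the primary-wall cellulose synthase, had signals of 186, 179 and 291 in Droughted Bala, 43.2, 33.4 and 25.5 in Control Bala, 106, 125 and 109.8 in Droughted Azucena and 116, 276 and 178 in Control Azucena. Control Bala lay below all arrays of the other groups. The interaction was 2.81 ± 0.35 (adjusted p = 7.6e-05), with a 4.63-fold rise in Bala and a log2 response of -0.60 in Azucena (adjusted p = 0.086). Its further probe set gave 1.16 (adjusted p = 0.047). CESA3 (1.80), CESA5 (1.73), CESA6 (1.59) and CESA8 (1.98), further primary-wall type subunits, had interactions of the same sign. CSLA1, a cellulose synthase-like gene, was dark in Control Bala and rose at least 6.09-fold there under drought, while its Azucena response was -0.30 in log2 (adjusted p = 0.48). KOB1, not a member of the list, whose Arabidopsis namesake is needed for cellulose synthesis in elongating cells, had signals of 543, 451 and 313 in Droughted Bala, 86.9, 116 and 118 in Control Bala, 238, 278 and 257 in Droughted Azucena and 409, 452 and 409.5 in Control Azucena. It rose 3.61-fold in Bala and fell 1.61-fold in Azucena, with no overlap of drought and control arrays in either cultivar (interaction 2.54 ± 0.26, adjusted p = 1.1e-05). BC1L9, a member of the COBRA-like family of wall proteins, averaged 113 ± 5.5 in Droughted Bala, 145 ± 20 in Control Bala, 185 ± 15 in Droughted Azucena and 1257 ± 180 in Control Azucena (SD, n = 3 each). It fell 6.3-fold in Azucena and was not called in Bala (interaction 2.34 ± 0.22, adjusted p = 3.8e-06).

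The secondary-wall subunits CESA4 and CESA7 and the COBRA-like gene BC1, which mark vascular and fibre tissue, were in the same list and were 3 of the 4 vascular markers. CESA4 had signals of 92.2, 83.2 and 144 in Droughted Bala, 5.4, 11.7 and 4.5 in Control Bala, 34.9, 25.2 and 21.3 in Droughted Azucena and 10.7, 54.8 and 6.9 in Control Azucena. CESA7 had signals of 89, 49.9 and 169.6 in Droughted Bala, 13.6, 11 and 7.9 in Control Bala, 40.4, 23.6 and 15.6 in Droughted Azucena and 17.3, 37.5 and 6 in Control Azucena. Both were dark in Control Bala and above background in Droughted Bala, and in Azucena the array Control Azucena 2 lay above the other control arrays of that cultivar. Their interactions were 2.10 (adjusted p = 0.0064) and 1.74 (adjusted p = 0.027), and that of BC1 was 1.53 (adjusted p = 0.026). CESA7 lost its call without Droughted Bala 3, Control Bala 1, Control Bala 3, Droughted Azucena 2, Droughted Azucena 3 or Control Azucena 2. Median centring, no filter on brightness and 1 added in place of 16 removed it too. BC1 lost its call without Droughted Bala 1, Droughted Bala 3, Control Bala 1, Droughted Azucena 3 or Control Azucena 2, and with no filter. The summed signal of the 4 markers was 168.1 to 377.4 in Droughted Bala, 18.1 to 33.4 in Control Bala, 84.4 to 122.7 in Droughted Azucena and 31.7 to 172.2 in Control Azucena. Its part in the cellulose interactions was not tested. The summed signal of all 26 cellulose genes was 2090.7 to 2693 in Droughted Bala, 1137 to 1336 in Control Bala, 2375 to 3035 in Droughted Azucena and 2978 to 4163 in Control Azucena. With the markers left out, 10 of the other 22 cellulose genes were higher in Bala and 1 was lower. For the whole list 2 were lower without Droughted Bala 3, Control Bala 1 or Droughted Azucena 1. The number of markers called dropped to 1 without Droughted Bala 3, Control Bala 1, Droughted Azucena 3 or Control Azucena 2, and a further probe set of CESA4 gave an interaction of 0.66 (adjusted p = 0.27).

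Of 33 actin, tubulin and common reference genes, which include genes outside the cytoskeleton, 8 were higher in Bala and none lower; of the 8, 5 rose in Bala without a call in Azucena and 3 were opposed. The median interaction of the 33 lay 0.19 above that of all genes, and most were not called. TUB1, a beta-tubulin, had signals of 357, 317 and 526 in Droughted Bala, 17.4, 23.6 and 27.8 in Control Bala, 280.4, 393 and 298 in Droughted Azucena and 109.5, 419 and 137 in Control Azucena. It rose 10.5-fold in Bala (adjusted p = 6.7e-07) and its interaction was 2.66 ± 0.47 (adjusted p = 0.0014). ACT2, an actin, had signals of 488, 622 and 606 in Droughted Bala, 222, 335 and 108 in Control Bala, 416, 488 and 462 in Droughted Azucena and 1154, 1411 and 841 in Control Azucena. Drought lay above control on all Bala arrays and below it on all Azucena arrays, at a 2.68-fold rise in Bala and a 2.39-fold fall in Azucena. GAPC3, a cytosolic glyceraldehyde-3-phosphate dehydrogenase of glycolysis, likewise rose 2.59-fold in Bala and fell 1.75-fold in Azucena (interaction 2.18 ± 0.19, adjusted p = 2.3e-06). The control probe sets of that enzyme had a 3′ to 5′ ratio of 1.31 to 1.34 in Droughted Bala, 1.88 to 2.26 in Control Bala, 5.25 to 6.12 in Droughted Azucena and 5.84 to 6.9 in Control Azucena, whose part in these values was not tested. TUB4, another beta-tubulin, gave 2.31 with its brightest probe set and 0.01 with a further one. Further probe sets of GAPC3 gave 1.90 and -0.13, the second not called. Kinesins, motors that run along microtubules, were higher in Bala in 8 of 28 genes tested and lower in none, with a median interaction 0.52 above that of all genes. Their signals were low, and KIN14C had 38.9, 60.8 and 54.1 in Droughted Bala, 0.9, 1.5 and 6.1 in Control Bala, 17.6, 23.9 and 11.4 in Droughted Azucena and 10, 20.3 and 7.1 in Control Azucena. Only Droughted Bala was above background (at least 3.34-fold rise, interaction 1.58, adjusted p = 0.0029). KIN14F showed the same order at 53.7, 36 and 57.8 in Droughted Bala against 2.3, 0.3 and 2.5 in Control Bala. The kinesin count fell to 4 without Droughted Bala 2 or Control Azucena 2 and to 5 without Control Bala 1, Droughted Azucena 2 or Droughted Azucena 3. Among dividing cell markers 1 of 12 tested was called, CYCA2-1, an A-type cyclin (0.90). It was not called without Droughted Bala 2, Droughted Azucena 2 or Control Azucena 1, and 2 markers were called without Droughted Bala 1. In all, 10 of the 22 on the array were dark on every array.

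**Figure D4:**
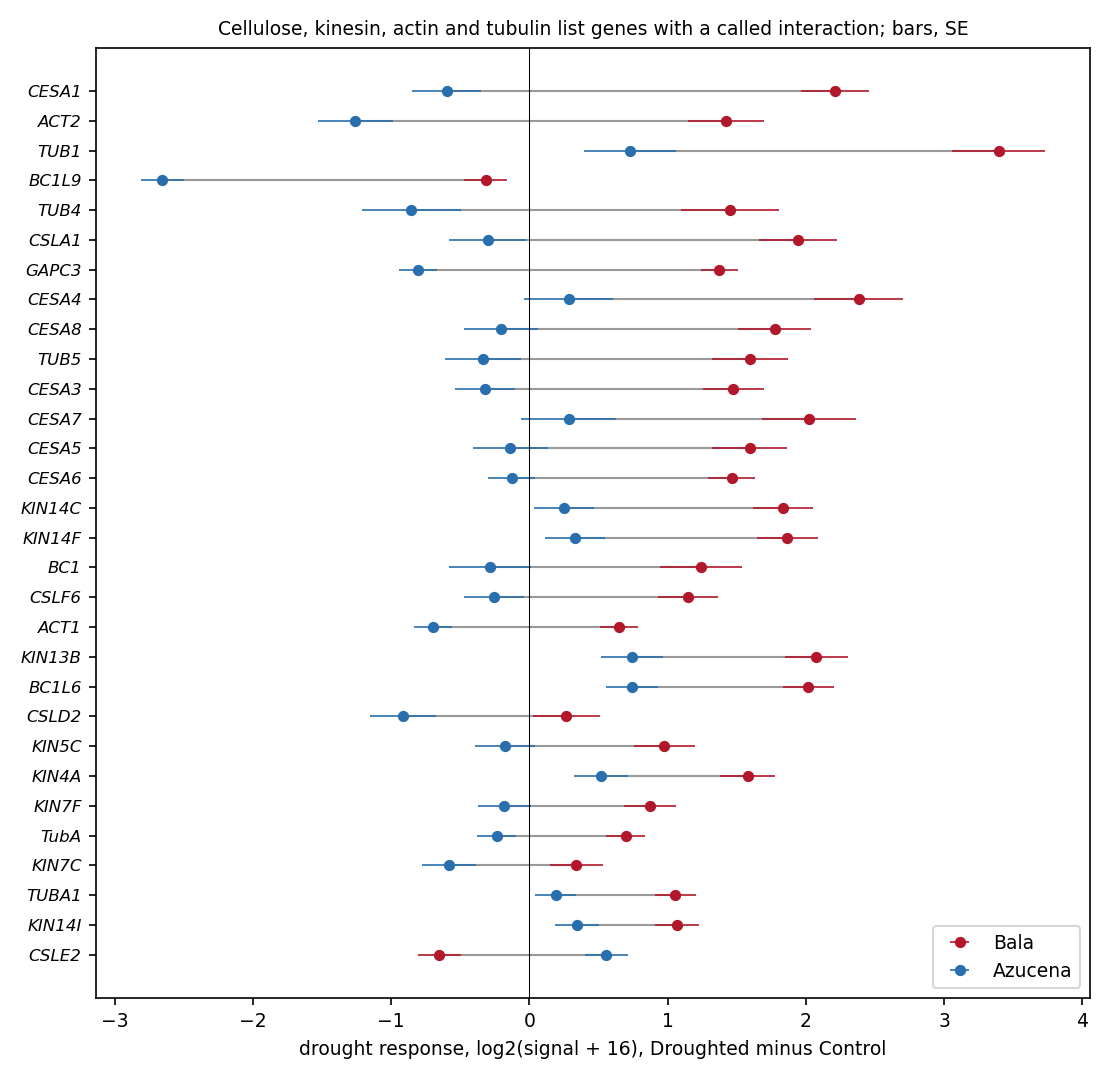
Drought response, Droughted minus Control in log2(signal + 16), in Bala (red) and Azucena (blue) for the cellulose, kinesin, actin, tubulin and reference genes with a called interaction, with SE bars. The Bala point lies to the right of the Azucena point in all rows but 1, a cellulose synthase-like gene.

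Expansins, which loosen the wall, did not follow one direction, with 3 higher and 3 lower in Bala of 17 tested with xyloglucan enzymes. EXP6 had signals of 441, 319 and 229 in Droughted Bala, 12.8, 20.7 and 5.7 in Control Bala, 25.3, 21.6 and 31.3 in Droughted Azucena and 16.6, 12.4 and 7.9 in Control Azucena. It was bright in Droughted Bala only and rose at least 18.4-fold there (adjusted p = 6.4e-09, interaction 2.98, adjusted p = 2.6e-05). EXPB3 and EXP2, in contrast, were dark in both Bala groups and fell in Azucena (at least 3.6-fold and at least 2.21-fold). Their interactions held no measured level in Bala. EXPB9 had signals of 11.6, 12.2 and 3.8 in Droughted Bala, 250.3, 216 and 109.6 in Control Bala, 15.7, 9.9 and 4.4 in Droughted Azucena and 41.5, 44.4 and 69.3 in Control Azucena. It was at background in both droughted groups and fell at least 8.31-fold in Bala and at least 2.33-fold in Azucena. The 3 higher expansins numbered 1 once probe sets dark throughout 1 cultivar were left out, and the 3 lower ones 1 with 1 added in place of 16.

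**Figure D5:**
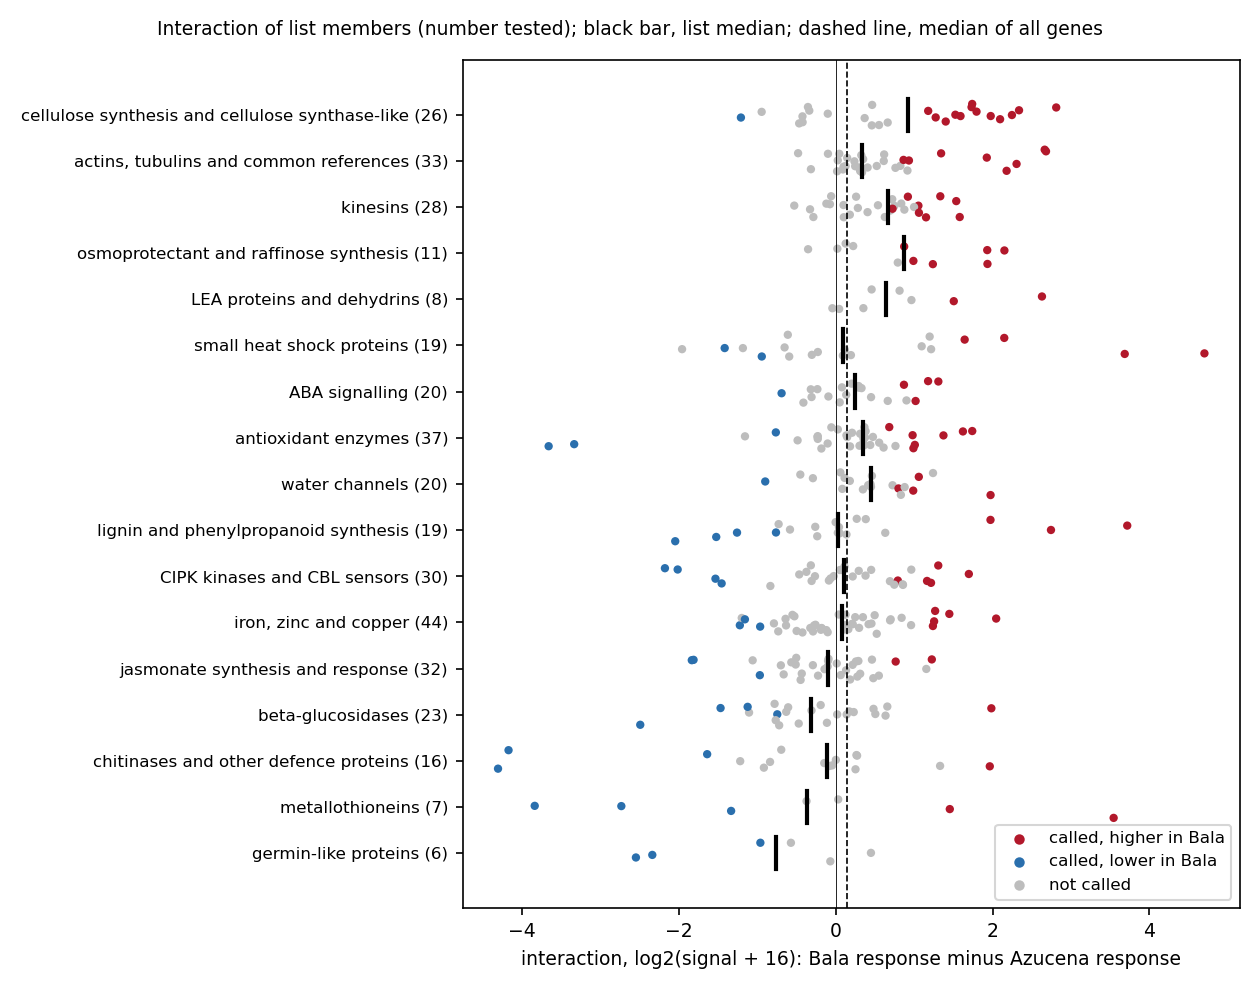
Interaction in log2(signal + 16), Bala response minus Azucena response, of each tested member of 17 gene lists (rows, number tested in brackets). Red and blue points are called interactions, higher and lower in Bala, grey points were not called, black bars are list medians and the dashed line is the median of all genes, 0.15; the cellulose list lies to the right and the germin-like list to the left.

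Among LEA proteins and dehydrins, which shield membranes and proteins as water is lost, 7 of 8 tested rose in Bala and 7 in Azucena, and 2 had a called interaction, both higher in Bala. RAB16D, a dehydrin, had signals of 868, 671 and 315 in Droughted Bala, 10.4, 1.4 and 1.3 in Control Bala, 133, 79 and 61.8 in Droughted Azucena and 2.5, 1.6 and 15.7 in Control Azucena. Both control groups were at background, and Droughted Bala lay above Droughted Azucena on all arrays. The gene rose at least 37.6-fold in Bala and at least 3.65-fold in Azucena (interaction 2.63, adjusted p = 0.0016, and 0.055 with 1 added in place of 16). Dhn1 had signals of 2194, 1958 and 1549.7 in Droughted Bala, 189, 237 and 232 in Control Bala, 2078, 2127 and 1969.6 in Droughted Azucena and 546, 1057 and 619.9 in Control Azucena. The droughted groups overlapped and the controls did not, with a rise of 8.11-fold in Bala and 2.85-fold in Azucena (interaction 1.51 ± 0.28, adjusted p = 0.0023). R40C1, an ABA-responsive lectin-like protein, averaged 3381 ± 820 in Droughted Bala, 124 ± 17 in Control Bala, 3049 ± 240 in Droughted Azucena and 648 ± 91 in Control Azucena (SD, n = 3 each). It rose 24.0-fold in Bala and 4.64-fold in Azucena (interaction 2.37, adjusted p = 1.3e-05). The lipid transfer protein genes LTPL1 and LTP2-B, of a family linked to the leaf surface, were higher in Bala as well (2.24 and 1.42). Further probe sets of LTP2-B gave 1.37 and -0.28, the second not called. LTPL1 rose 4.09-fold in Bala and was not called in Azucena.

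Osmoprotectant and raffinose synthesis, which supplies water-holding solutes and sugars, held 6 genes higher in Bala and none lower of 11 tested, with a median interaction 0.73 above that of all genes. INO1, inositol-phosphate synthase, which makes the inositol backbone of raffinose sugars, had signals of 1205, 995 and 685 in Droughted Bala, 179, 267 and 206 in Control Bala, 343, 320.5 and 323 in Droughted Azucena and 308, 309 and 293 in Control Azucena. Droughted Bala was above every other array, and Azucena was not called (log2 0.11, adjusted p = 0.72), for an interaction of 1.94 ± 0.26 (adjusted p = 0.00017). RFS, raffinose synthase, had signals of 1808, 1244 and 1017 in Droughted Bala, 95.5, 151 and 66.6 in Control Bala, 1348, 1135 and 816 in Droughted Azucena and 301, 384 and 356 in Control Azucena. It rose 11.6-fold in Bala and 3.03-fold in Azucena, with overlap between the droughted groups (interaction 1.93, adjusted p = 0.0019). BADH1, betaine aldehyde dehydrogenase, rose in both as well (interaction 0.87). Trehalose-phosphate phosphatase genes, which make trehalose from its phosphate, reached the same sign in different ways: TPP1 fell at least 4.7-fold in Azucena and was dark in both Bala groups, and TPP2 rose at least 2.56-fold in Bala. The interaction of TPP1 thus held an Azucena fall and no measured level in Bala.

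Small heat shock proteins, chaperones that hold unfolding proteins, rose in 13 of 19 tested in Bala and 14 in Azucena, and their interactions were split, 4 higher and 2 lower in Bala, with a median 0.06 below that of all genes. HSP18.0 had signals of 8650.1, 8304 and 3426 in Droughted Bala, 27.7, 41.3 and 24.6 in Control Bala, 10189, 9623 and 7861 in Droughted Azucena and 1827, 2180.4 and 1362 in Control Azucena. The droughted groups overlapped, while Control Bala was far below Control Azucena, giving a rise of 134.6-fold in Bala and 5.18-fold in Azucena (interaction 4.70 ± 0.39, adjusted p = 1.4e-06). Further probe sets assigned to HSP18.0 gave -0.04 and 0.10, and neither was called. HSP17.4 rose at least 192.3-fold in Bala, where the control was dark, and 33.4-fold in Azucena (interaction 2.15, adjusted p = 0.0088, and 0.20 with 64 added in place of 16). HSP16.0 had 3782, 2486 and 794 in Droughted Bala and 91.5, 168 and 69.9 in Control Bala, against 53.8, 37.7 and 19.3 in Droughted Azucena and 188, 1.8 and 1.1 in Control Azucena. A single Control Azucena array was above background, and the call (3.68 ± 1.0, adjusted p = 0.025) was lost without Droughted Bala 1, Droughted Bala 2, Control Bala 1, Control Bala 3 or Droughted Azucena 3. HSP18.8 (-1.41) and HSP17.9A (-0.94) were lower in Bala, HSP18.8 with the larger fall in Bala and HSP17.9A with the larger rise in Azucena. The 2 numbered 1 without any 1 of 8 arrays (all but Droughted Bala 1, Control Bala 1, Droughted Azucena 3 and Control Azucena 1). Of 26 genes for the large chaperones and heat stress factors, 1 was called, the heat stress factor HSFA4D (1.14), which fell in both cultivars. In this list 4 were called without Droughted Azucena 1 and 2 without Droughted Bala 3.

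Of 20 ABA signalling genes tested, 4 were higher in Bala and 1 lower. SAPK6, a kinase of the SnRK2 family, had signals of 877, 950.5 and 919.7 in Droughted Bala, 232, 249.5 and 264 in Control Bala, 772, 960.0 and 962 in Droughted Azucena and 552, 664 and 661 in Control Azucena. Control Bala was the low group, and the rise was 3.52-fold in Bala and 1.42-fold in Azucena (interaction 1.31 ± 0.19, adjusted p = 0.00035). The phosphatase gene OsPP2C08, of the class that switches off kinases of ABA signalling, averaged 726 ± 150 in Droughted Bala, 172 ± 27 in Control Bala, 264 ± 53 in Droughted Azucena and 146 ± 29 in Control Azucena (SD, n = 3 each), with rises of 3.91-fold in Bala and 1.73-fold in Azucena (interaction 1.18, adjusted p = 0.011). SAPK10 (1.02) and the phosphatase gene PP2C06 (0.87) were called too, and each lost its call without 5 of the 12 arrays in turn. For SAPK10 these were Droughted Bala 1, Droughted Bala 2, Control Bala 1, Droughted Azucena 1 and Control Azucena 1, and for PP2C06 Droughted Bala 2, Droughted Bala 3, Control Bala 2, Droughted Azucena 3 and Control Azucena 2. Without Droughted Bala 2 the 4 numbered 2. The lower gene, the kinase gene SAPK3, was not called once any 1 of 9 arrays was left out (all but Control Bala 1, Droughted Azucena 2 and Control Azucena 2). ABA1, zeaxanthin epoxidase of ABA synthesis, was the only one of 3 synthesis and breakdown genes called, with an interaction of 1.03 and a fall in Azucena (log2 -0.85). It lost the call without Control Bala 1 or Droughted Azucena 3 and after quantile normalization. PSY2, phytoene synthase, which opens the carotenoid pathway upstream of ABA, averaged 303 ± 39 in Droughted Bala, 70.9 ± 45 in Control Bala, 395 ± 120 in Droughted Azucena and 510.2 ± 55 in Control Azucena (SD, n = 3 each). It rose 3.99-fold in Bala (interaction 2.39 ± 0.4, adjusted p = 0.00091). Of 26 DREB and other drought transcription factors 11.5% were called, beside 14.9% of all genes. Of those called, 2 were higher in Bala, the drought-induced zinc finger genes DI19-5 (1.09) and DI19-6 (1.02), and 1 was lower, NAC010 (-1.22). The 2 numbered 1 without Droughted Bala 1, Droughted Bala 2, Control Bala 1, Droughted Azucena 1 or Droughted Azucena 2, 4 without Control Bala 2 and 5 with spike-in centring. The 1 lower numbered 2 without Control Azucena 2 and 4 with median centring. DI19-5 was opposed, rising 1.46-fold in Bala and falling 1.47-fold in Azucena.

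A group of genes was bright in Droughted Azucena alone, and these held the largest negative interactions of genes with a name. MRL, a mannose-binding lectin also known as salT, had signals of 60.6, 51.1 and 11 in Droughted Bala, 15.7, 10.8 and 10.1 in Control Bala, 881, 5760.5 and 888 in Droughted Azucena and 14.8, 13.8 and 18.9 in Control Azucena. Every Droughted Azucena array stood above all others, Droughted Azucena 2 by far the highest. The gene rose at least 69.7-fold in Azucena and was not called in Bala (interaction -4.84 ± 0.73, adjusted p = 0.00041, 95% interval -6.39 to -3.29). RBBI3.3, a Bowman-Birk inhibitor of serine proteases, had signals of 45.9, 28.1 and 10.5 in Droughted Bala, 16.2, 12.3 and 10.1 in Control Bala, 1214, 1159 and 782 in Droughted Azucena and 16.4, 16.8 and 30.6 in Control Azucena. It rose at least 40.2-fold in Azucena (interaction -4.30 ± 0.37, adjusted p = 2e-06). Cht-1, a chitinase, had signals of 78, 62.6 and 45.8 in Droughted Bala, 107, 92.4 and 84.3 in Control Bala, 763, 1793 and 1241 in Droughted Azucena and 61.4, 80.7 and 104 in Control Azucena. All 3 Droughted Azucena arrays stood far above the other groups, and it rose 12.6-fold in Azucena (interaction -4.17 ± 0.36, adjusted p = 2e-06). pinA had the same pattern, at 1838 ± 350 in Droughted Azucena and 75.8 ± 6.9 in Control Azucena (SD, n = 3 each), with an interaction of -3.86 ± 0.27 (adjusted p = 3.4e-07). MRL is measured by a probe set shared between transcripts of a gene and RBBI3.3 by one that can match several genes, so near-identical copies may add to both. Of 16 chitinase and other defence genes tested 3 were lower in Bala and 1 higher, the chitinase gene Cht11 (1.97), and with median centring 5 were lower, while 2 were higher without Control Azucena 1.

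ICL and MS, isocitrate lyase and malate synthase, are the paired enzymes of the glyoxylate cycle, which turns the products of fat breakdown into sugars. ICL had signals of 29.1, 9.7 and 11.5 in Droughted Bala, 7.4, 11.2 and 4.2 in Control Bala, 92.2, 1098 and 674 in Droughted Azucena and 6.8, 0.5 and 0.7 in Control Azucena. MS had signals of 114, 54 and 16.6 in Droughted Bala, 2.3, 15.6 and 14.2 in Control Bala, 253, 1146 and 1070.5 in Droughted Azucena and 2.7, 11.5 and 6 in Control Azucena. In both genes the 3 Droughted Azucena arrays were above all others and Droughted Azucena 1 was the lowest of them. ICL rose at least 17.2-fold in Azucena (interaction -4.13 ± 0.77, adjusted p = 0.0023) and MS rose at least 2.98-fold in Bala and at least 28.6-fold in Azucena (interaction -3.60 ± 0.69, adjusted p = 0.0026). ASMT1, named for acetylserotonin methyltransferase, the last step of melatonin synthesis, was dark in the Bala groups and in Control Azucena and reached 236, 435 and 375 in Droughted Azucena (interaction -3.88 ± 0.37, adjusted p = 5.2e-06). JAMYB, a jasmonate-responsive MYB factor, rose at least 2.47-fold in Bala and at least 15.9-fold in Azucena (interaction -2.91, adjusted p = 8.7e-05). IAA6, an auxin-response repressor, rose 2.03-fold in Bala and 10.3-fold in Azucena (interaction -2.34, adjusted p = 0.0034). The chlorophyll breakdown gene SGR, which rises in ageing leaves, rose in both cultivars without a called interaction (0.79, adjusted p = 0.42), and none of the 5 chlorophyll breakdown and senescence genes was called by limma (1 at an unadjusted p under 0.05). With quantile normalization, median centring or spike-in centring 1 of the 5 was called, lower in Bala.

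Metallothioneins, small cysteine-rich proteins that bind metals, were called in 5 of 7 genes, 2 higher and 3 lower in Bala. MT2C had signals of 5949, 5690.0 and 5407 in Droughted Bala, 542, 308 and 1079 in Control Bala, 6795, 7003 and 6664 in Droughted Azucena and 6912, 9656 and 8086 in Control Azucena. Control Bala was the only low group, and the interaction was 3.54 ± 0.39 (adjusted p = 2.2e-05), with 5 probe sets between 3.53 and 4.50. MT2B fell 3.83-fold in Bala and 10.5-fold in Azucena with its brightest probe set (interaction 1.46), and a further one gave 1.65. Another gave an interaction of 3.98, with means of 475.2 in Droughted Bala and 396.9 in Control Bala (a difference of mean log2 signals of 0.15). MT1B went the other way, with signals of 733, 376 and 249.9 in Droughted Bala, 249.5, 429 and 551 in Control Bala, 1865, 4062 and 2302 in Droughted Azucena and 388, 86.8 and 111 in Control Azucena. It rose in Azucena (log2 3.91) and was not called in Bala (interaction -3.83 ± 0.64, adjusted p = 0.00089). MT4A fell 3.29-fold in Bala and rose 2.02-fold in Azucena (interaction -2.73 ± 0.38, adjusted p = 0.0002), although Control Azucena spanned 627 to 1652 and overlapped Droughted Azucena. MT4C was lower in Bala as well (-1.33). The probe sets of MT2C and MT2B match more than 1 transcript.

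Glutaredoxins, which use glutathione to reduce protein disulphides, had 5 called interactions among 17 tested. Of the 17 tested, 3 were opposed (17.6%), beside 1.28% opposed of all genes tested. All 3 had a called interaction, as did every opposed gene tested. The glutaredoxins were set apart from the other antioxidant genes after their values were seen, so this share by itself says nothing of the family. Of the other 2 called, GRXC7 (0.98) rose in both cultivars and GRXS12 (0.99) rose in Bala without a call in Azucena. GRXC10 had signals of 46.7, 28.6 and 50.5 in Droughted Bala, 98.1, 143 and 217 in Control Bala, 70.3, 77.6 and 109 in Droughted Azucena and 6.7, 5.1 and 7.9 in Control Azucena. GRXC1 had signals of 247, 177 and 271 in Droughted Bala, 1086, 864 and 969.6 in Control Bala, 345, 459.6 and 804 in Droughted Azucena and 389, 129 and 139 in Control Azucena. Both fell in Bala, 2.83-fold and 4.04-fold, with no overlap between Bala conditions. In Azucena GRXC10 rose at least 3.55-fold against a dark control group, and GRXC1 rose 2.49-fold with 1 Control Azucena array above 1 Droughted Azucena array. Their interactions were -3.66 ± 0.34 (adjusted p = 3.8e-06) and -3.33 ± 0.47 (adjusted p = 0.00021). GRXS2 was opposed the other way, rising 1.69-fold in Bala and falling 1.97-fold in Azucena (interaction 1.74 ± 0.31, adjusted p = 0.0014). Among the 37 antioxidant genes tested, these included, 7 were higher in Bala and 3 lower. APX7, an ascorbate peroxidase, which removes hydrogen peroxide, rose 2.54-fold in Bala and was not called in Azucena (interaction 1.62, adjusted p = 0.0043). The catalase gene CAT-A fell in Bala without a call in Azucena (interaction -0.76), and SODCC.1, a copper-zinc superoxide dismutase, rose in Bala without one (0.68).

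GLT2, an NADH-dependent glutamate synthase of ammonium assimilation, had signals of 694, 676 and 779 in Droughted Bala, 1619, 1749 and 2825 in Control Bala, 695, 826 and 1035 in Droughted Azucena and 330.5, 403 and 376 in Control Azucena. Drought and control did not overlap in either cultivar, and the gene fell 2.76-fold in Bala and rose 2.23-fold in Azucena (interaction -2.62 ± 0.27, adjusted p = 1.2e-05). The other called nitrogen genes, 3 higher in Bala of 19 tested, were the ammonium transporter genes AMT1 (1.26) and AMT3-3 (2.24) and GLN1-1, cytosolic glutamine synthetase (1.79). GLN1-1 averaged 1167 ± 68 in Droughted Bala, 1119 ± 400 in Control Bala, 929 ± 210 in Droughted Azucena and 2965 ± 410 in Control Azucena (SD, n = 3 each), with a fall of 3.18-fold in Azucena and no call in Bala. AMT1 rose 1.41-fold in Bala and fell 1.69-fold in Azucena. Sugar and starch genes split too. SS1, a starch synthase, rose 10.3-fold in Bala and 3.55-fold in Azucena (interaction 1.53, adjusted p = 0.00085). MST3, a monosaccharide transporter, fell 8.72-fold in Bala and 2.61-fold in Azucena (interaction -1.74, adjusted p = 0.046), with a call lost without 10 of the 12 arrays in turn (all but Droughted Bala 3 and Droughted Azucena 1). SWEET5, a sugar exporter, fell at least 7.07-fold in Bala and was dark in both Azucena groups.

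Several genes had a negative interaction with a fall in Bala. MPH1, a MYB transcription factor, had signals of 258, 156 and 171 in Droughted Bala, 897, 1739 and 861 in Control Bala, 173, 377 and 302 in Droughted Azucena and 358, 254 and 218 in Control Azucena. Control Bala was the high group, and the fall was 5.42-fold in Bala (interaction -2.44 ± 0.41, adjusted p = 0.001). PHOT1A, a phototropin, the blue-light receptor of chloroplast and leaf movement, fell in both, 5.27-fold in Bala and 1.47-fold in Azucena (interaction -1.85 ± 0.25, adjusted p = 0.00015). Germin-like proteins, apoplastic proteins that include oxalate oxidases and superoxide dismutases, were lower in Bala in 3 of 6 tested and higher in none, at a median interaction 0.91 below that of all genes. All 6 had a group at background, so that this median rests partly on the added 16. GER4 (-0.96) lost its call without Droughted Bala 2 and with 1 added in place of 16 (adjusted p = 0.20), which left 2. GER6 had 170.3, 155 and 225 in Control Bala and was at background in the other groups, a fall of at least 8.33-fold in Bala. GLP2 fell at least 11.2-fold in Bala and at least 1.3-fold in Azucena, and its further probe set gave 0.17 (adjusted p = 0.76). Beta-glucosidases, which release hormones and defence compounds from their sugar conjugates, were lower in Bala in 4 of 23 and higher in 1, at a median 0.46 below that of all genes. The 4 numbered 2 without Droughted Bala 2, Control Bala 3, Droughted Azucena 3 or Control Azucena 3. BGLU16 had signals of 68.6, 85.1 and 83.3 in Droughted Bala, 180.5, 167 and 199.8 in Control Bala, 572, 953 and 1363 in Droughted Azucena and 310.5, 353 and 322 in Control Azucena. It fell 2.09-fold in Bala and rose 2.69-fold in Azucena, with no overlap of drought and control in either (interaction -2.49 ± 0.32, adjusted p = 9e-05). BGLU1 (LOC4333841) was the 1 higher in Bala (1.99), with a 6.25-fold rise in Bala and 1.58-fold in Azucena. OsC3H54, a CCCH zinc finger protein, fell 2.46-fold in Bala and rose 1.46-fold in Azucena (interaction -1.85, adjusted p = 0.00013).

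Of 30 flowering genes tested 3 were higher and 1 lower in Bala, a share of 13.3% called beside 14.9% of all genes. MADS14, a floral identity factor that the florigen complex turns on, had signals of 823, 757 and 942 in Droughted Bala, 1686, 2057 and 1674 in Control Bala, 44.1, 84 and 1.4 in Droughted Azucena and 803, 1039 and 253 in Control Azucena. Both Bala groups and Control Azucena were bright and Droughted Azucena was low; the fall in Azucena was 13.1-fold (interaction 2.62 ± 0.7, adjusted p = 0.021). The call was lost without Control Bala 1 or Control Azucena 2, and of 3 further probe sets 1 was called (2.22, adjusted p = 0.0023) and 2 were not (1.65, adjusted p = 0.061, and 0.35, adjusted p = 0.62). MADS15, its close relative, had signals of 37.5, 36.2 and 51 in Droughted Bala, 3.5, 16.9 and 31.3 in Control Bala, 1.4, 3.4 and 1 in Droughted Azucena and 53.2, 109 and 16.6 in Control Azucena. It was at background in Droughted Azucena (interaction 2.75, adjusted p = 0.0024), and further probe sets gave 2.13 and 1.06, the second not called (adjusted p = 0.069). Hd3a, the florigen itself, fell to background in both cultivars, at least 13.8-fold in Bala and at least 1.76-fold in Azucena, and its interaction (-1.82, adjusted p = 0.015) was not called with 1 added in place of 16 (adjusted p = 0.86). Without Control Bala 1 or Control Azucena 2 the 3 higher genes numbered 1, and with median centring or quantile normalization 3 genes were lower. None of 5 floral organ markers tested was called by limma, none had an unadjusted p under 0.05, and 8 of the 14 on the array were dark in all groups.

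Calcium signalling genes went both ways. Of 30 CIPK kinases and CBL calcium sensors, which together read calcium signals, 5 were higher and 4 lower in Bala. The 5 numbered 3 without Droughted Bala 2 and 9 without Control Bala 2, and 8 with array weights. CIPK14 averaged 1484 ± 260 in Droughted Bala, 610.2 ± 350 in Control Bala, 1674 ± 250 in Droughted Azucena and 130.3 ± 41 in Control Azucena (SD, n = 3 each). It rose 2.62-fold in Bala and 11.8-fold in Azucena (interaction -2.17 ± 0.42, adjusted p = 0.0026). CIPK5 rose 3.02-fold in Azucena and was not called in Bala (interaction -2.01). CIPK3 fell 2.04-fold in Azucena and was not called in Bala (interaction 1.70, adjusted p = 0.0048), and its further probe set was not called (0.80, adjusted p = 0.14). CBL9 was opposed at low signals, with means of 5.87 in Droughted Bala, 22 in Control Bala, 41.6 in Droughted Azucena and 18.7 in Control Azucena (interaction -1.53, adjusted p = 0.0012), and a further probe set gave -0.71 (adjusted p = 0.14). Of 19 calcium-dependent kinases 21.1% were called, beside 14.9% of all genes, 3 lower in Bala and 1 higher. The 3 numbered 1 once probe sets dark throughout 1 cultivar were left out, while the 1 numbered 2 without Control Bala 2 or Control Azucena 1. The cytokinin response regulator gene ORR3 fell 1.99-fold in Bala and rose 1.55-fold in Azucena (interaction -1.62 ± 0.29, adjusted p = 0.0014). Of the 32 jasmonate genes tested 15.6% were called, beside 14.9% of all genes. Jasmonate repressors of the JAZ family, JAZ10 (-1.81), JAZ11 (-1.83) and JAZ12 (-0.96), were lower in Bala. OPR10, named for oxophytodienoate reductase (1.23), and TIFY2A (0.77) were higher, and the 2 numbered 1 with 1 added in place of 16 and without any 1 of 9 arrays (all but Droughted Bala 3, Control Bala 2 and Control Bala 3). The 3 lower numbered 1 without Droughted Bala 3, Control Bala 3, Droughted Azucena 2 or Control Azucena 1.

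Transport genes made up the last of the larger groups. Of 20 water channels tested 4 were higher and 1 lower in Bala. PIP1-1, a plasma-membrane aquaporin, had signals of 4035, 4015 and 4091 in Droughted Bala, 1914, 2267 and 1744 in Control Bala, 3369.8, 3472 and 3558 in Droughted Azucena and 3575, 3858 and 2732 in Control Azucena. Control Bala was the low group, and the gene rose 2.05-fold in Bala and was not called in Azucena (interaction 0.99 ± 0.19, adjusted p = 0.0024). PIP1-3 (1.98, adjusted p = 0.025) lost its call without Droughted Bala 2, Control Bala 1 or Droughted Azucena 1, and the 4 channels numbered 2 without Control Bala 1 or Droughted Azucena 1. TIP4-1, a vacuolar aquaporin, fell in both, 3.68-fold in Bala and 1.98-fold in Azucena (interaction -0.90), and was not called once any 1 of 8 arrays was left out (all but Droughted Bala 3, Control Bala 2, Droughted Azucena 1 and Control Azucena 2), nor with a further probe set (-0.14). Of 44 iron, zinc and copper genes 5 were higher and 3 lower in Bala, 18.2% called beside 14.9% of all genes. NAS3, nicotianamine synthase, which makes the chelator that carries iron and zinc in the plant, had signals of 3.2, 5.3 and 7.3 in Droughted Bala, 3.7, 46.1 and 37 in Control Bala, 27.6, 22.8 and 13.1 in Droughted Azucena and 241, 330.4 and 249.6 in Control Azucena. It was at background in both droughted groups and fell at least 11.4-fold in Azucena (interaction 2.05, adjusted p = 0.0064). VIT1, a vacuolar iron transporter, fell 2.98-fold in Azucena and was not called in Bala (interaction 1.45 ± 0.25, adjusted p = 0.0011). PHT1-8, a phosphate transporter, fell 2.65-fold in Azucena and was not called in Bala, and SPX4, a sensor of phosphate, rose 1.77-fold in Azucena without a call in Bala (interactions 1.14 and -1.20). A further probe set of SPX4 was not called (-0.48, adjusted p = 0.35). The 3 lower metal genes numbered 1 without Droughted Bala 2 and 5 after quantile normalization or median centring.

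Diterpenoid phytoalexin genes, which make rice's antimicrobial defence compounds, were called in 5 of 18 tested, 3 higher and 2 lower in Bala. The 3 numbered 1 with 1 added in place of 16 and 5 with 64, and the 2 numbered 1 without any 1 of 9 arrays (all but Droughted Bala 3, Control Bala 3 and Droughted Azucena 1). KS1A, an ent-kaurene synthase-like gene, was opposed, with a 1.64-fold rise in Bala and a 1.81-fold fall in Azucena (interaction 1.57 ± 0.23, adjusted p = 0.00032). CPS2, a copalyl diphosphate synthase, fell 2.85-fold in Bala and had a log2 response of 0.00 in Azucena (interaction -1.51). Larger falls in Azucena gave a positive interaction in mfs1, which fell 2.78-fold in Bala and 17.5-fold in Azucena (interaction 2.65 ± 0.45, adjusted p = 0.001). ADF-11, an actin-depolymerising factor, fell 2.72-fold in Bala and 8.91-fold in Azucena (interaction 1.71 ± 0.28, adjusted p = 0.00067). BURP17, of the BURP-domain family, was dark on all Bala arrays and averaged 42 ± 28 in Droughted Azucena and 400.1 ± 190 in Control Azucena (SD, n = 3 each), so that its interaction (2.80) held an Azucena fall and no measured level in Bala. In all, 115 called genes were dark on all 6 Bala arrays and 113 on all 6 Azucena arrays. For these genes the interaction holds no measured response in the dark cultivar. With probe sets dark throughout 1 cultivar left out, 1479 genes were higher and 710 lower in Bala. By limma none of the tested mesophyll (9 genes), root (4), WRKY (6), photorespiration (5) or gibberellin and brassinosteroid (10) genes had a called interaction. At an unadjusted p under 0.05 there were 3, 0, 2, 2 and 3 in the same order. Under the other scalings some were called, all of them lower in Bala. In the same order they numbered 2, 0, 2, 1 and 0 with median centring and 1, 0, 2, 1 and 1 after quantile normalization. With spike-in centring 1 mesophyll gene was called. The probe sets of KS1A, BGLU16, CBL9, MADS15, JAZ10, LTP2-B, PHT1-8, SPX4 and SGR can also match near-identical transcripts. That of CIPK3 is shared between transcripts of a gene.

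The interaction can also be read as a change in the gap between the cultivars, from the same arrays and so as a description only. Among called genes, 1143 differed between Bala and Azucena in control and not under drought, 641 under drought and not in control, 225 in both in the same direction, 248 in both in opposite directions and 76 in neither. Over all genes tested these classes held 3056, 1857, 1912, 248 and 8535. The median size of the cultivar difference among called genes was 0.48 in log2 under drought and 0.78 in control, against 0.27 and 0.33 over all genes. The cultivars were closer under drought in 1449 of the called genes (62.1%) and in 54.6% of all genes tested. These counts and gaps were taken from the values as deposited, and their dependence on scaling was not tested. Array medians there were 9.6, 11 and 9.9 in Control Bala and 12.4, 11.9 and 10.7 in Control Azucena. In the droughted groups they were 11.5, 11.8 and 11.2 in Bala and 11.9, 12.2 and 11.5 in Azucena. CHS1, HSP18.0, MT2C and R40C1 were called apart in control and not under drought, with control differences, Bala minus Azucena, of -5.77, -5.25, -3.81 and -2.25 in log2. GSTF1 (2.98), EXP6 (3.00), MRL (-5.01) and Cht-1 (-3.97) were apart under drought by these log2 differences, and of the 4 only GSTF1 was also apart in control, in the opposite direction (-1.16). Where a called gene had several tested probe sets, the next brightest had the same sign in 313 of 362 genes, and it was called with the same sign in 153 and with the opposite sign in 1.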

How the data were processed

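Gene expression was measured on Affymetrix rice arrays from biotin-labelled RNA of 12 leaf samples (6 µg total RNA each, Trizol extraction and clean-up per the labels' protocols). The deposited values are linear signal intensities per probe set, and the submitters' processing notes name MAS5; neither a version nor a scaling target is given in the sources used here, and no detection calls were used. Groups and replicate numbers came from the sample titles.

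No further scaling was applied before taking log2(signal + 16). The 123 control probe sets were left out. The 33476 probe sets that passed a filter (signal over the median of that array, on at least 3 of 12) were fitted with 1 mean per group over all 12 arrays in limma 3.58.1 (lmFit, eBayes with a mean-variance trend; R 4.3.3, the data.table package at 1.17.8), with Benjamini-Hochberg adjustment over all of them at 0.05. Tables were handled with pandas 2.3.3 and numpy 2.4.6 in Python 3.11.15 and plots drawn with matplotlib 3.10.9. Of 57381 probe sets, 22436 had 1 gene in the platform annotation, 95 had several and 34850 were not listed; 2164 tested genes had a name, of which 406 were called. A gene was represented by its probe set with the highest mean log2 value. A group was at background if all its arrays, or its mean, did not exceed the highest negative control probe set, and "at least" folds use that level. Background differed between groups, so such folds are not comparable between cultivars. Intensities carry no counts, and the number of arrays limits the precision.

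Genes were named by rule: the 15 largest interactions each way with all groups above background, the 6 largest each way with a group at background, the 3 largest in each response class, and per list up to 4 called members or, with none called, the member with the largest mean drought response. Other list members in the text were chosen after their values were seen. The members and the 50 gene lists were chosen with earlier results of these data known, and list patterns were tidied after names but before values were read. The code was tested on simulated data with normal noise. There it called 0% of interactions of log2 size 0.5, 12% of size 1, 78% of size 2 and 98% of size 4. Promoter motifs were not examined, as no sequences were used here. Alternatives covered scaling, the added value, filters, variance model, array weights, replicate block, probe set choice and leaving out each array. The design text gives separate bags for 3 field blocks, while the labels do not say which block a replicate number stands for.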

Additional observations from a re-analysis of the deposited data

Results flagged for a closer look

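The difference between the cultivars' responses was itself tested for every gene, and the results singled out here are those where each cultivar's own response was called and the responses had opposite directions. There were 133 genes that rose in Bala and fell in Azucena and 67 that fell in Bala and rose in Azucena.

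Of the genes named above with the first pattern, the log2 interaction was 2.74 for CAD3, 2.68 for ACT2, 2.54 for KOB1, 2.18 for GAPC3, 1.74 for GRXS2, 1.57 for KS1A, 1.26 for AMT1 and 1.09 for DI19-5. Of those with the second pattern it was -3.66 for GRXC10, -3.33 for GRXC1, -2.73 for MT4A, -2.62 for GLT2, -2.49 for BGLU16, -1.85 for OsC3H54, -1.62 for ORR3 and -1.53 for CBL9. Single outlying samples were not looked for within groups, as that check was set for groups of at least 4, and the effect of leaving out each array is given below.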

How the results depend on the processing

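No named gene's interaction changed sign under the scalings, added values, filters, variance models, replicate block or left-out arrays. The majority of calls higher in Bala was lost with median centring: 65.7% were higher in Bala as deposited and 49.5% (1360 higher, 1390 lower) with median centring. Taking the second brightest probe set, 313 of 362 called genes kept the sign, 153 were called with it and 1 was called with the opposite sign. The number of genes lower in Bala was 1390 with median centring and 1442 after quantile normalization, against 801, and the number that fell in Bala was 3471 and 3328 under the same scalings, against 2195. Leaving out 1 array at a time gave 1005 to 1729 genes higher in Bala (lowest without Droughted Bala 2, highest without Control Bala 2), 591 to 909 lower, 3095 to 4282 that rose and 1832 to 2358 that fell in Bala, and 2024 to 3083 that rose and 2070 to 2862 that fell in Azucena. With the replicate number as a block, 1700 genes were higher and 811 lower in Bala. Same-numbered arrays of different groups had residual correlations of -0.11 to 0.218, above 0.1 in 2 of 18 pairs. Both joined Droughted Azucena to Droughted Bala, at 0.167 (number 1) and 0.218 (number 3), with 0.003 for number 2. Droughted Azucena 3 with Droughted Bala 1 gave -0.196 and Droughted Azucena 1 with Droughted Bala 3 gave -0.187. Over all groups 4 of 12 arrays matched best with their own number, so the numbers were not taken to pair the samples. Whether same-numbered droughted arrays share a block was not tested. Of 157 named genes with a called interaction, 43 lost the call without some array and 14 under some scaling. Over all alternatives that kept every array, scalings included, 49 lost it under at least 1. With no filter on brightness 1105 genes were higher and 563 lower in Bala. That setting also called 71.1% of the genes higher in Bala and 68.5% of those lower. List medians relative to all genes moved by at most 0.18 between scalings. Genes whose groups lie at background are limited by signal over background, and their interactions depend on the added value.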

Other observations

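Some of the largest interactions belonged to genes that carry only an identifier in the tables used here; they were chosen after their values were seen. LOC4347708 had signals of 7965, 4645 and 1872 in Droughted Bala, 31.1, 0.8 and 47.6 in Control Bala, 7311, 4498 and 3248 in Droughted Azucena and 3287, 2547 and 1511 in Control Azucena, an interaction of 5.78 ± 0.69 (adjusted p = 4.8e-05). LOC9266485 had signals of 469, 412 and 255 in Droughted Bala, 34.5, 62.5 and 17.5 in Control Bala, 132, 226 and 208 in Droughted Azucena and 1129, 718 and 827 in Control Azucena and was opposed, with a 7.51-fold rise in Bala and a 4.45-fold fall in Azucena (interaction 5.06 ± 0.41, adjusted p = 1.3e-06). In the other direction, LOC4344199 had signals of 98.2, 120.2 and 142 in Droughted Bala, 2242, 788 and 2166 in Control Bala, 579, 648 and 844 in Droughted Azucena and 129, 191 and 145 in Control Azucena, with a 11.7-fold fall in Bala and a 4.12-fold rise in Azucena (interaction -5.60 ± 0.42, adjusted p = 6e-07). LOC4341299 had signals of 196, 152 and 79.5 in Droughted Bala, 226, 124 and 584 in Control Bala, 488, 549.7 and 755 in Droughted Azucena and 47.9, 30 and 40.5 in Control Azucena, an interaction of -4.31 ± 0.55 (adjusted p = 8.4e-05).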
